A study of Mus musculus with 4 samples.

Results

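The 10 mouse genes described here encode the cyclins of classes A, B, D, E and G: Ccna2, Ccnb1, Ccnb2, Ccnd1, Ccnd2, Ccnd3, Ccne1, Ccne2, Ccng1 and Ccng2. They were chosen by symbol, and each was found among the 32230 rows of a deposited table of TPM (a level per transcript: reads divided by gene length and scaled to a total of 1000000 in each library). All 10 passed a filter on low values (mean over libraries not under 1 TPM), which left 14621 genes for testing. Polyadenylated RNA had been sequenced from 4F2A mouse embryonic fibroblasts, taken from male homozygous mid-gestation embryos, in which doxycycline switches on a cassette with Oct4, Sox2, Klf4 and Myc, the factors of reprogramming. The treated group received CX-5461, an inhibitor of RNA polymerase I, for 1 h on day 0, and the control group received the vehicle DMSO in the same way. The dose of CX-5461 is not given in the sources used here. Cells of both groups were kept in doxycycline at 2 µg/mL for 48 h with serum replacement and LIF, and were harvested on day 2. Each group had 2 libraries, numbered 2 and 3, which the labels call parallel replicates without saying whether they came from separate cultures; a p-value here measures no more than the spread of these libraries, which may be technical.

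Cyclins are the regulatory subunits of cyclin-dependent kinases (CDKs), and most are named for the stage at which they act. D-type cyclins bind CDK4 and CDK6 in G1 and respond to growth signals. E-type cyclins bind CDK2 at the entry into S phase, cyclin A2 serves CDK2 in S phase and CDK1 in G2, and the B-type cyclins drive mitosis with CDK1. Transcription of the A, B and E genes rises and falls with the cycle, through E2F at G1/S and through B-MYB, FOXM1 and the DREAM complex at G2/M. Cyclins G1 and G2 stand outside this scheme: neither is known as a periodic activator of a CDK, both bind the phosphatase PP2A, and Ccng1 is a classic target of p53 whereas Ccng2 is raised by FOXO factors in resting cells.

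The promoters of Ccnb1, Ccnb2 and Ccng1 are shown because these genes gave the largest falls of the family and the rise that passed. RefSeq promoter sequences (build GRCm38.p6, the same assembly as mm10) were at hand for 6 of the 10 genes, Ccnb1, Ccnb2, Ccnd3, Ccne1, Ccng1 and Ccng2, with 2 start sites for Ccnd3. Each runs from 250 bases before the start site to 50 bases after it, on the strand of the gene, which is the minus strand for all 3 shown. They lie at chr13:100786437-100786736 for Ccnb1, chr9:70421505-70421804 for Ccnb2 and chr11:40755237-40755536 for Ccng1. Capitals mark CCAAT (bound by NF-Y) on either strand, TTTGAA and TTTAAA (forms of the cell cycle genes homology region, CHR, to which DREAM and B-MYB complexes bind) and, in Ccng1, a run of 20 bases that differs from the p53 consensus site at 1 position.
Ccnb1: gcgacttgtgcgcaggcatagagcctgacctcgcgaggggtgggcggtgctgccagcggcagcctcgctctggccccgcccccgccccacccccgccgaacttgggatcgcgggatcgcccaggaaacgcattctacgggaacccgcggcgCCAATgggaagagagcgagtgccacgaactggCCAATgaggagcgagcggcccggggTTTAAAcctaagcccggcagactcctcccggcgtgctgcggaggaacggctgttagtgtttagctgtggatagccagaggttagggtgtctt
Ccnb2: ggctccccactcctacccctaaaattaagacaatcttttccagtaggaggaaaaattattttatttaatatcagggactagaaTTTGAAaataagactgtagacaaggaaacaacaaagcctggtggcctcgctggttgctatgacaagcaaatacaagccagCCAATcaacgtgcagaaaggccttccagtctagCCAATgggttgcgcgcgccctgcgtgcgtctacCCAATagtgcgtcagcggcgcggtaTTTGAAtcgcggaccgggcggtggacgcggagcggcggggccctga
Ccng1: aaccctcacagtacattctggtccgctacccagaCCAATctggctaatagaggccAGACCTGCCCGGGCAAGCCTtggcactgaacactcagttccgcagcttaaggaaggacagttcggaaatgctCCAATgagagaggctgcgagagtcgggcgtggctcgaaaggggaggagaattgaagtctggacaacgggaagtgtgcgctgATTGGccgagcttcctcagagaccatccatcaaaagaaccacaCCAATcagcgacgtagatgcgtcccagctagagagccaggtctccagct

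The Ccnb1 promoter held CCAAT at -99 and -67 and TTTAAA at -42, counted from the start site to the first base of each match. In the Ccnb2 promoter CCAAT stood at -87, -54 and -21 and TTTGAA at -167 and at position 5 downstream of the start. The CCAAT copies of Ccnb1 began 32 bases apart and those of Ccnb2 33 bases apart. Of 32851 RefSeq mouse promoters of the same length, 0.487% had CCAAT copies on the same strand at either spacing, a measure chosen after these sequences were seen. CCAAT in any number was found in 37.4% of those promoters, TTTGAA in 17.9% and TTTAAA in 13.2%. The p53-like run of Ccng1 began at -195. A match this close was present in 29 of the 32851 promoters (0.0883%), and CCAAT was found 4 times in the same window, with no pair at the spacing of the B-type genes. Ccne1 held TTTAAA at -15, Ccnd3 had CCAAT at -108 of its second start site, and GTAAACA, a FOXO core, was matched at -243 of its first. Neither TTCGAA nor the TATA box (letters TATAAA) was found in the 7 windows. The E2F letters TTTCGCGC were not found either, nor the forms TTTGGCGC or TTTCCCGC or TTTGCCGC, searched like the others on both strands, and no searched motif was found in that of Ccng2.

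In CX-5461 cells 6 of the 10 cyclins fell, 1 rose and 3 did not pass. Falls were seen for Ccna2, Ccnb1, Ccnb2, Ccne1, Ccne2 and Ccnd3, and the rise was that of Ccng1. Genes were compared with limma on log2(TPM + 1), and a gene passed at a Benjamini-Hochberg adjusted p under 0.05 over all genes tested. By this rule 8.21% of all tested genes fell and 11.6% rose (19.8% in all), while 60% of the cyclins fell and 10% rose. The balance over the whole table depended on the scaling: 1694 genes were higher and 1201 lower on TPM as deposited, against 1616 to 1652 higher and 1646 to 1683 lower under 3 other scalings (median-of-ratios, quantile, and rescaled without mitochondrially encoded and the 20 highest genes). The 6 lower cyclins and the higher one passed under each of the 3. The libraries of the groups did not overlap for 9 cyclins, 6 lower and 3 higher, against 64.5% of all tested genes, 26.3% lower and 38.2% higher. The median log2 difference, CX-5461 minus DMSO, was -1.02 over the 10 cyclins and 0.07 over all genes tested. These are values of bulk RNA, in which fewer cells of a type and less RNA per cell cannot be told apart.

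**Figure D1:**
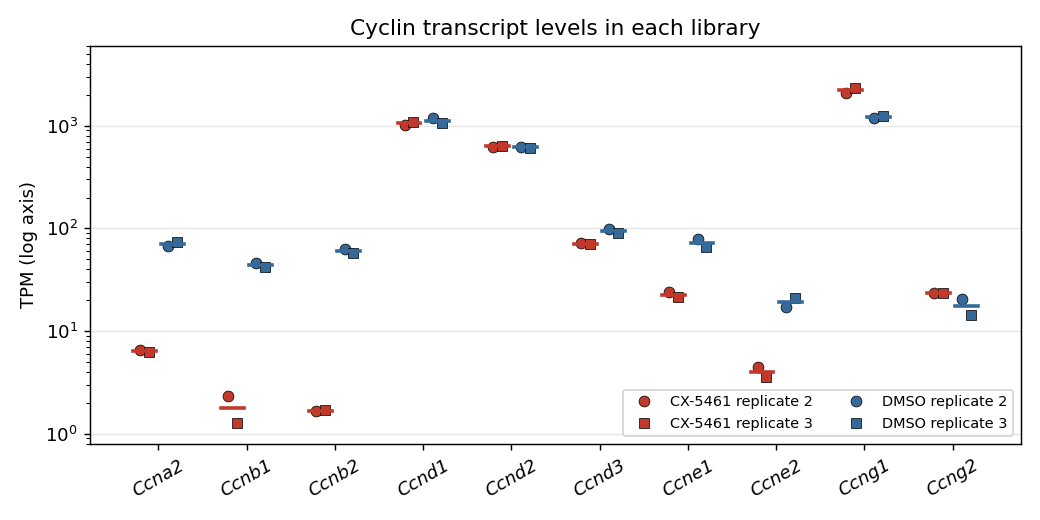
TPM of each cyclin (log axis) in the 2 CX-5461 libraries (red, left of each pair) and the 2 DMSO libraries (blue, right); circles are replicate 2, squares replicate 3, and bars the group means. Ccna2, Ccnb1 and Ccnb2 lie at 1.26 to 6.48 TPM with CX-5461, against 42.5 to 74.4 TPM with DMSO, while Ccnd1 and Ccnd2 lie at similar heights in both groups.

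The mitotic B-type cyclins fell furthest. Ccnb2 (chromosome 9, 70407692 to 70421547, mm10), the B-type cyclin linked to the Golgi, was at 1.65 and 1.68 TPM in CX-5461 libraries, against 62.7 and 57.6 TPM in DMSO libraries. The groups stood far apart. The CX-5461 libraries hardly differed, but with 26 recovered reads in each, so small a spread can be a coincidence. The log2 difference of Ccnb2 was -4.52 (95% interval -4.81 to -4.22, limma adjusted p = 0.000163), which ranked 3 from the lowest of the 14621 tested genes. The interval rests in part on that spread and may be too narrow. Ccnb1 (chromosome 13, 100778650 to 100786570), the B-type cyclin that moves into the nucleus at the onset of mitosis, was at 2.33 and 1.26 TPM with CX-5461, against 45.9 and 42.5 TPM with DMSO. All CX-5461 values were below all DMSO values, but the CX-5461 libraries differed from each other more than those of Ccnb2. Its difference was -4.04 (interval -4.55 to -3.53, limma adjusted p = 0.000443).

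Low levels rest on few reads. In recovering read numbers, each end of a read pair was taken as a read, so independent fragments are fewer. Read numbers recovered from the TPM values and exon lengths came to 26 and 26 for Ccnb2 in the CX-5461 libraries, against 986.5 and 1019 in the DMSO libraries. For Ccnb1 they were 101 and 53.5 with CX-5461, against 1990.0 and 2072 with DMSO; not every recovered value was whole. At this depth the CX-5461 values of Ccnb1 and Ccnb2 overlapped, whereas in DMSO cells Ccnb2 was above Ccnb1 in both libraries. The ratio of Ccnb1 to Ccnb2 was 1.41 and 0.747 in CX-5461 libraries and 0.732 and 0.738 in DMSO libraries, so only CX-5461 replicate 2 stood away from the others. Ccnb1-ps, a processed pseudogene on chromosome 7 that could take or lend reads of Ccnb1, was at 0.757 and 0.0385 TPM with CX-5461 and at 1.60 and 2.99 TPM with DMSO. It did not pass (limma adjusted p = 0.0700).

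Ccna2 (chromosome 3, 36564865 to 36572150), the cyclin of S phase and of entry into mitosis, was at 6.48 and 6.28 TPM in CX-5461 libraries, against 67.9 and 74.4 TPM in DMSO libraries. The groups did not overlap, and the CX-5461 mean was 8.97% of the DMSO mean. On the log2(TPM + 1) scale the difference was -3.29 (interval -3.54 to -3.04, limma adjusted p = 0.000177). The ratio of Ccna2 to Ccnb2 was 3.92 and 3.73 with CX-5461, against 1.08 and 1.29 with DMSO. Ratios between genes are given as values and were not tested.

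The E-type cyclins of S phase entry fell by less. Ccne1 (chromosome 7, 38097984 to 38107534) was at 23.9 and 21.4 TPM in CX-5461 libraries, against 78.8 and 66.3 TPM in DMSO libraries, with a log2 difference of -1.63 (interval -1.93 to -1.34, limma adjusted p = 0.00118). Ccne2 (chromosome 4, 11191351 to 11204779) was at 4.47 and 3.55 TPM with CX-5461, against 17.2 and 21.0 TPM with DMSO, and differed by -2.00 (interval -2.42 to -1.59, limma adjusted p = 0.00173). Neither gene's groups overlapped. Ccne1 held the greater part of the E-type sum in every library, 84.3% and 85.8% with CX-5461 and 82.1% and 76.0% with DMSO. The intervals of both E-type genes lay above those of Ccna2, Ccnb1 and Ccnb2.

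The D-type cyclins, which serve G1, stayed abundant. Ccnd1 (chromosome 7, 144929931 to 144939925), the D-type cyclin most tied to growth factor signals, was at 1026 and 1096 TPM in CX-5461 libraries and at 1178 and 1066 TPM in DMSO libraries, and the groups overlapped. Its log2 difference of -0.08 had an interval of -0.31 to 0.15 (limma adjusted p = 0.580). Ccnd2 (chromosome 6, 127125162 to 127152193) was at 628.03 and 638 TPM with CX-5461 and at 627.66 and 606 TPM with DMSO, with an interval of -0.15 to 0.23 (limma adjusted p = 0.761). Neither passed, and on TPM as deposited the intervals leave room for differences of up to 1.24-fold and 1.17-fold.

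Ccnd3 (chromosome 17, 47505051 to 47599691), the D-type cyclin best known from lymphoid and muscle cells, was the member of its class that fell. It was at 71.5 and 70.5 TPM in CX-5461 libraries, against 99.2 and 91.0 TPM in DMSO libraries, with no overlap. The difference was -0.42 (interval -0.63 to -0.20, limma adjusted p = 0.0260), and the call was lost without CX-5461 replicate 2 (adjusted p = 0.169) and without CX-5461 replicate 3 (0.208). It was also lost with no filter on low values (limma adjusted p = 0.0526) and without limma's trend and robust options (0.0672). Ccnd3 made up 4.14% and 3.91% of the D-type sum with CX-5461, against 5.21% and 5.16% with DMSO, while Ccnd1 made up 59.5% and 60.7% with CX-5461 and 61.8% and 60.5% with DMSO.

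**Figure D2:**
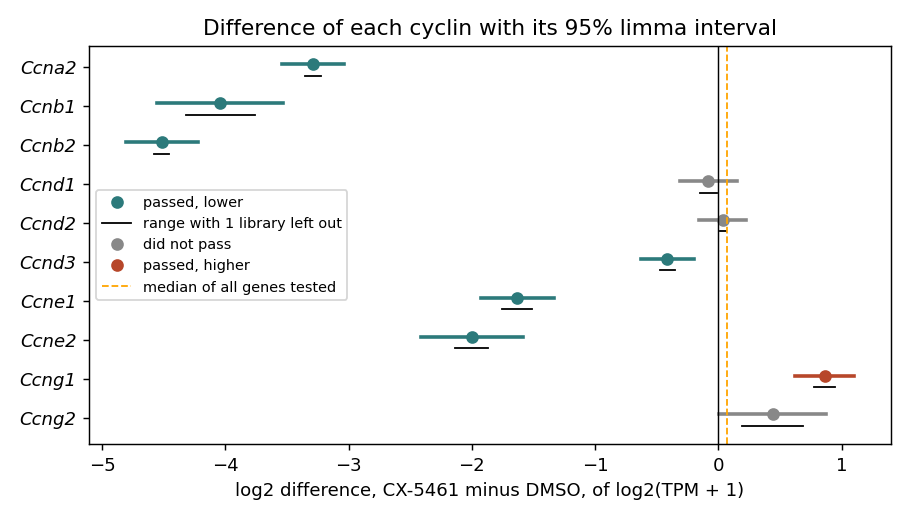
Log2 difference of each cyclin (CX-5461 minus DMSO, log2 of TPM + 1), with its 95% interval from limma (thick line) and the range of the difference with 1 library left out (thin line below). Ccnb2 lies lowest at -4.52 and Ccng1 highest at 0.86; the dashed line is the median of all genes tested, 0.07.

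Ccng1 (chromosome 11, 40748552 to 40755311), the p53 target whose product binds PP2A and Mdm2, rose. It was at 2092 and 2352 TPM in CX-5461 libraries, against 1196 and 1245 TPM in DMSO libraries, and both CX-5461 values lay above both DMSO values. The log2 difference was 0.86 (interval 0.62 to 1.10, limma adjusted p = 0.00399), a 1.82-fold rise. The call was lost without CX-5461 replicate 2 (difference 0.95, adjusted p = 0.0516) and without CX-5461 replicate 3 (0.78, adjusted p = 0.0864). Among all tested genes Ccng1 ranked 32 by mean TPM with CX-5461, against rank 80 with DMSO.

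Ccng2 (chromosome 5, 93267257 to 93276231), known as a cyclin of resting cells, was at 23.4 and 23.7 TPM in CX-5461 libraries and at 20.5 and 14.3 TPM in DMSO libraries. All CX-5461 values were above all DMSO values, yet the DMSO libraries differed more from each other than DMSO replicate 2 differed from either CX-5461 library. The log2 difference of 0.44 (interval 0.01 to 0.87) did not pass (limma adjusted p = 0.134). Without DMSO replicate 2 it did (0.69, adjusted p = 0.0261). The remaining DMSO library, replicate 3, had 15.3% of its TPM in mitochondrially encoded genes, against 9.20% and 9.24% in the CX-5461 libraries and 9.96% in DMSO replicate 2, and the part of this share in the result was not tested.

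By level, the order of the family changed below the top. In both groups Ccng1 led, followed by Ccnd1, Ccnd2 and Ccnd3, and no neighbours among these 4 overlapped. In CX-5461 cells Ccng2 (23.6 ± 0.198 TPM, SD, n = 2) and Ccne1 (22.7 ± 1.77) came next and overlapped, then Ccna2 (6.38 ± 0.140), Ccne2 (4.01 ± 0.655), Ccnb1 (1.80 ± 0.760) and Ccnb2 (1.67 ± 0.0212), and Ccnb1 and Ccnb2 overlapped. In DMSO cells Ccne1 (72.5 ± 8.83 TPM) and Ccna2 (71.1 ± 4.55) followed Ccnd3 and overlapped, then came Ccnb2 (60.1 ± 3.62), Ccnb1 (44.2 ± 2.42), Ccne2 (19.1 ± 2.68) and Ccng2 (17.4 ± 4.38), and Ccne2 and Ccng2 overlapped.

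Summed over the 10 genes, cyclin transcripts came to 3880 and 4214 TPM in CX-5461 libraries, against 3394 and 3284 TPM in DMSO libraries. G-type transcripts, nearly all Ccng1, took up 54.5% and 56.4% of this sum with CX-5461, against 35.8% and 38.3% with DMSO. The D-type share was 44.5% and 42.8% with CX-5461, against 56.1% and 53.7% with DMSO. B-type transcripts were 0.103% and 0.0698% of the sum with CX-5461, against 3.20% and 3.05% with DMSO, and Ccna2 was 0.167% and 0.149%, against 2.00% and 2.26%. The D-type to E-type ratio was 60.7 and 72.2 in CX-5461 libraries and 19.9 and 20.2 in DMSO libraries. A sum of different cyclins is a sum of transcripts and says nothing of kinase activity, which was not measured.

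**Figure D3:**
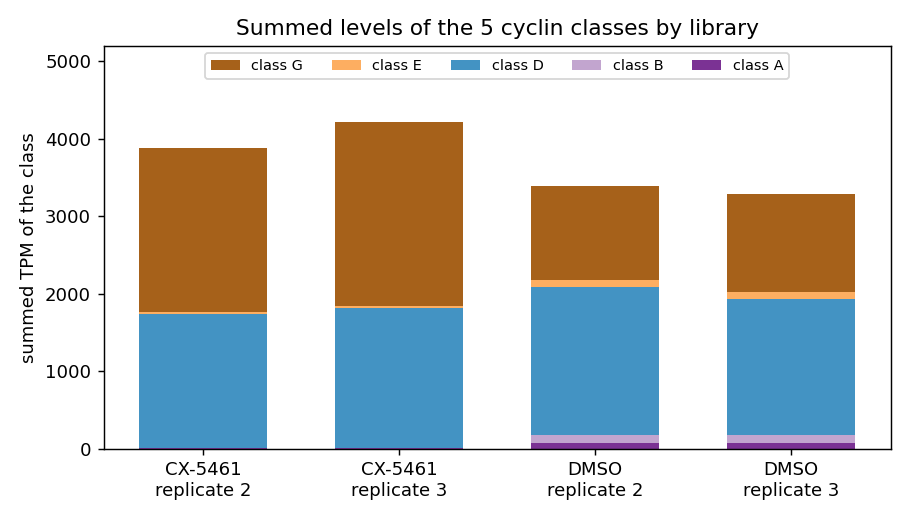
Summed TPM of the cyclin classes A, B, D, E and G in each library, CX-5461 libraries to the left of DMSO libraries, stacked from class A at the bottom to class G at the top. Class G reaches 2116 and 2376 TPM with CX-5461, against 1216 and 1259 TPM with DMSO, and classes A and B can hardly be seen with CX-5461.

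Of the 4 CDK genes that partner these cyclins, 2 fell and 0 rose with limma (median log2 difference -0.59), and 0 rose at an unadjusted p under 0.05. For this and each list below, the share over all genes tested was 8.21% lower and 11.6% higher. Cdk1, the mitotic kinase, was at 4.48 and 4.02 TPM with CX-5461, against 43.48 and 31.95 TPM with DMSO (difference -2.87, limma adjusted p = 0.000689). Cdk2, the S phase kinase, was at 9.38 and 9.66 TPM, against 19.5 and 18.4 TPM (-0.92, limma adjusted p = 0.00487), and lost its call without CX-5461 replicate 2 (adjusted p = 0.0543) and without CX-5461 replicate 3 (0.0555). The G1 kinases Cdk4 (-0.27) and Cdk6 (-0.24) did not pass. Cdk4 was at 277 and 286 TPM, against 329 and 349 TPM, and passed under each of the 3 other scalings (-0.37 to -0.33, limma adjusted p = 0.0323 to 0.0440) and without DMSO replicate 2 (0.0395). Set against its kinase, the B-type sum was 0.890 and 0.732 times Cdk1 in CX-5461 libraries, against 2.50 and 3.13 times in DMSO libraries. E-type transcripts were 3.03 and 2.59 times Cdk2 with CX-5461, against 4.93 and 4.74 times with DMSO, and D-type transcripts 5.68 and 5.75 times Cdk4 and Cdk6 together, against 5.28 and 4.62 times.

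Of 9 kinases, phosphatases and adaptors that switch cyclin-CDK complexes, 6 fell and 0 rose with limma (median -1.14; 0 rose at an unadjusted p under 0.05). The adaptor genes Cks2 and Cks1b had the smallest adjusted p. Cks2 was at 22.8 and 17.3 TPM with CX-5461, against 110.3 and 100.2 TPM with DMSO (-2.34, limma adjusted p = 0.000729), and Cks1b at 60.5 and 62.3 TPM, against 146 and 128 TPM (-1.14, adjusted p = 0.00182). The CDK1-inhibiting kinases Wee1 (-0.90) and Pkmyt1 (-2.22) and the CDK-activating phosphatases Cdc25b (-1.65) and Cdc25c (-2.34) fell as well, whereas Cdc25a (-0.25) and the CDK-activating kinase genes Cdk7 (0.12) and Mnat1 (0.20) did not pass. Near the floor with CX-5461 were Pkmyt1 (0.776 and 0.722 TPM, against 8.24 and 6.17 TPM) and Cdc25c (0.158 and 0.403 TPM, against 6.44 and 4.61 TPM). The size for Cdc25c ran from -3.94 with a pseudocount of 0.1 to -0.99 with 5. Wee1 lost its call without CX-5461 replicate 2 (limma adjusted p = 0.0761) and without CX-5461 replicate 3 (0.0967).

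Among 9 factors of ubiquitin ligases that bind or degrade cyclins, 5 fell and 1 rose (median -0.73). Cdc20, which directs the anaphase-promoting complex to cyclin B, was at 8.87 and 11.0 TPM with CX-5461, against 155 and 132 TPM with DMSO (-3.73, limma adjusted p = 0.000262). Fbxo5, an inhibitor of that complex, was at 0.924 and 1.14 TPM, against 26.5 and 26.9 TPM (-3.77, adjusted p = 0.000262), and Ube2c (-3.99), Skp2 (-1.41) and Ube2s (-0.73) fell too, the last not without CX-5461 replicate 2 (limma adjusted p = 0.0666) or CX-5461 replicate 3 (0.0612). Fbxo5 was near the floor with CX-5461, and its size ran from -4.57 with a pseudocount of 0.1 to -2.39 with 5. In mean TPM Fbxo5 fell 25.9-fold, against 14.4-fold for Cdc20. The size for Ube2c was loose (interval -4.85 to -3.13), as its CX-5461 libraries differed from each other. The rise was that of Fbxw7, which targets cyclin E, at 26.1 and 29.6 TPM, against 16.8 and 17.2 TPM (0.68, limma adjusted p = 0.0115). It lost its call without CX-5461 replicate 2 (adjusted p = 0.0647) and without CX-5461 replicate 3 (0.121). Fzr1 (-0.24), Fbxo31 (-0.25) and Ambra1 (0.01), which directs D-type cyclins to degradation, did not pass. Under each of the 3 other scalings Fzr1 passed as lower (-0.32 to -0.31, limma adjusted p = 0.0417 to 0.0487).

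Of 7 cyclins that serve transcription, 0 fell and 0 rose with limma (median 0.07, and none had an unadjusted p under 0.05), and their log2 differences ran from -0.21 for Ccnh to 0.30 for Ccnt1. With 19.8% of all tested genes called in either direction, 0 calls among 7 genes says little about this list. The smallest adjusted p were those of Ccnh, at 32.2 and 35.0 TPM with CX-5461, against 41.1 and 37.2 TPM with DMSO (limma adjusted p = 0.192), and of Ccnk, at 36.0 and 41.2 TPM, against 46.4 and 42.8 TPM (-0.21, adjusted p = 0.227). Of 10 further cyclins, 5 were tested and 2 of them fell. Ccnf, which acts in G2 within a ubiquitin ligase, was at 3.52 and 4.81 TPM with CX-5461, against 18.1 and 14.6 TPM with DMSO (-1.75, limma adjusted p = 0.00341). Ccnyl1, a membrane-linked relative of cyclin Y, was at 64.0 and 61.9 TPM, against 81.9 and 87.3 TPM (-0.42, adjusted p = 0.0236), and kept its call only without DMSO replicate 2 when 1 library was left out (adjusted p up to 0.205). Ccni (-0.03), Ccnj (0.17) and Ccny (0.12) did not pass. Ccnb3 was listed at 0 in every library and Ccna1 in all but DMSO replicate 3.

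**Figure D4:**
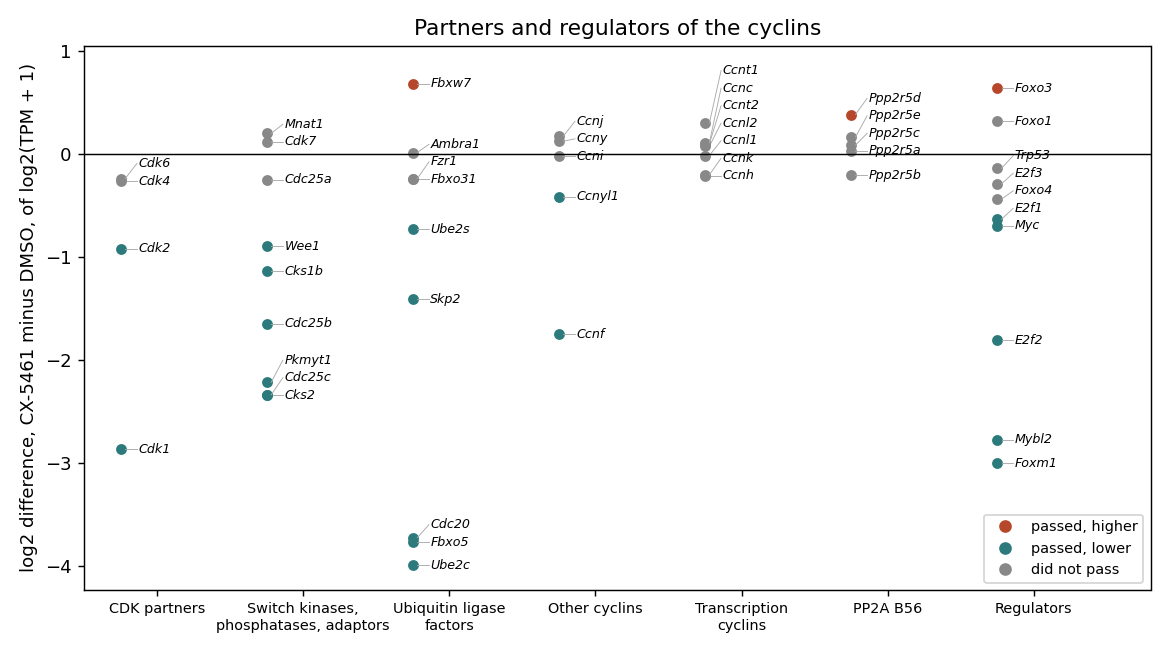
Log2 difference (CX-5461 minus DMSO, log2 of TPM + 1) of the 49 tested genes in 7 lists of cyclin partners, relatives and regulators; colour gives the limma call. Of these genes 20 passed as lower and 3 as higher, against 8.21% lower and 11.6% higher over all genes tested. The lists of transcription cyclins and PP2A subunits lie between -0.21 and 0.38.

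Of 5 B56 subunits of PP2A, the phosphatase subunits that cyclin G binds, 1 rose and 0 fell with limma (median 0.08, and 0 fell at an unadjusted p under 0.05). Over all genes tested 11.6% rose and 8.21% fell, so 1 call among 5 genes says little about this list. Ppp2r5d was at 194 and 209 TPM with CX-5461, against 147 and 163 TPM with DMSO (0.38, limma adjusted p = 0.0401). It did not pass under any of the 3 other scalings (0.27 to 0.31), nor without CX-5461 replicate 2 (limma adjusted p = 0.175), CX-5461 replicate 3 (0.294) or DMSO replicate 2 (0.0645). Ppp2r5b, the member with a difference below 0, was at 58.8 and 58.0 TPM with CX-5461, against 70.3 and 65.1 TPM with DMSO (-0.21, limma adjusted p = 0.148), and passed as lower under each of the 3 other scalings (-0.30 to -0.27, adjusted p = 0.0370 to 0.0494). Under those scalings 1 subunit of this list was thus lower and 0 higher. Of 10 regulators known to drive cyclin genes, 5 fell and 1 rose (median -0.54). Foxm1, which activates G2/M genes, was at 3.91 and 4.20 TPM, against 37.8 and 41.3 TPM (-3.00, limma adjusted p = 0.000262), and Mybl2, which encodes B-MYB, at 1.60 and 1.31 TPM, against 16.4 and 15.1 TPM (-2.78, adjusted p = 0.000569). E2f1 (-0.64), E2f2 (-1.81) and Myc (-0.70) fell, and the values do not separate Myc of the cassette from the endogenous gene. E2f2 was near the floor with CX-5461, at 0.439 and 0.305 TPM, against 4.03 and 3.58 TPM with DMSO. Foxo3, a FOXO factor of resting and stressed cells, rose to 91.6 and 93.5 TPM with CX-5461, against 56.1 and 62.5 TPM with DMSO (0.64, limma adjusted p = 0.00841). Without CX-5461 replicate 2 and without CX-5461 replicate 3 the calls of Foxo3 (limma adjusted p = 0.0850 and 0.108), E2f1 (0.0764 and 0.125) and Myc (0.0853 and 0.0972) were lost, and that of E2f1 also without DMSO replicate 3 (0.0529). Trp53 (-0.14), Foxo1 (0.31), Foxo4 (-0.44) and E2f3 (-0.29) did not pass. Under each of the 3 other scalings Foxo4 (-0.51 to -0.50, limma adjusted p = 0.0280 to 0.0305) and E2f3 (-0.36 to -0.35, adjusted p = 0.0334 to 0.0349) passed as lower, and Foxo4 did so without DMSO replicate 3 too (0.0480).

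For each cyclin, the gene with the most similar pattern was taken as the one with the smallest Euclidean distance over the 4 libraries, on log2(TPM + 1) values centred on the DMSO mean. For Ccnb2 it was Ckap2l (distance 0.207, difference -4.41), for Ccnb1 Cep55 (0.204, -4.08) and for Ccna2 Ttk (0.139, -3.20). Ttk and Cep55 were near the floor with CX-5461, where the added 1 TPM shrinks a fold. Ttk was at 0.277 and 0.202 TPM, against 9.61 and 11.2 TPM with DMSO. Cep55 was at 0.738 and 0.341 TPM, against 23.9 and 25.7 TPM. A small distance here is therefore not a like fold in TPM. Zwilch lay closest to Ccne1 (0.121, -1.56), E2f7 to Ccne2 (0.135, -1.92) and Trim17 to Ccng1 (0.0424, 0.87). Within a distance of 0.5 there were 2 genes for Ccnb2, 6 for Ccnb1 and 29 for Ccna2, against 7631 for Ccnd1 and 8317 for Ccnd2, where the nearest genes were Txn2 for Ccnd1 and Iqgap1 for Ccnd2. Ovgp1 for Ccnd3 and Vps33b for Ccng2 were nearest by the same measure, among 3629 and 4003 genes within that distance. Ovgp1 was near the floor, at 0.821 and 0.794 TPM with CX-5461, against 1.52 and 1.30 TPM with DMSO. That gene did not pass (limma adjusted p = 0.284).

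Libraries were alike in depth, with 35.2M and 35.0M recovered reads with CX-5461 and 35.2M and 37.3M with DMSO. Log2 values correlated across the 14621 genes at 0.986 between the CX-5461 libraries, at 0.984 between the DMSO libraries and at 0.949 to 0.954 across groups. All 8 fibroblast markers were above 1 TPM, with sums of 8532 and 8243 TPM in CX-5461 libraries and 11770.0 and 9491 TPM in DMSO libraries. Summed keratinocyte markers were 88.7 and 90.9 TPM, against 79.0 and 81.9 TPM, macrophage markers 90.1 and 118 TPM, against 75.9 and 97.7 TPM, endothelial markers 58.3 and 57.2 TPM, against 51.0 and 50.6 TPM, muscle markers 33.4 and 33.5 TPM, against 24.3 and 20.3 TPM, and neuron markers 289 and 287 TPM, against 300 and 301 TPM. Members of 1 list could differ in direction. Of the keratinocyte markers, Sfn was at 74.8 and 69.3 TPM with CX-5461, against 51.1 and 53.3 TPM with DMSO, and Krt14 at 10.8 and 18.5 TPM, against 26.4 and 26.9 TPM. Of the endothelial markers, Kdr was at 23.8 and 24.1 TPM, against 6.16 and 6.42 TPM, and Tek at 33.9 and 32.6 TPM, against 44.3 and 43.7 TPM, while Pecam1, Cdh5 and Emcn stayed under 1 TPM in every library. The muscle sum was nearly all Des, with Myod1 and Myog listed at 0. Tubb3 and Stmn2 made up most of the neuron sum and differed in direction. Tubb3 was at 187 and 187 TPM with CX-5461, against 219 and 211 TPM with DMSO. Stmn2 was at 90.8 and 87.3 TPM, against 68.2 and 77.1 TPM, while Rbfox3 and Snap25 were near 0 in every library. The macrophage sums of the groups overlapped, and so did the values of Ptprc, Csf1r, Cd68 and C1qa. Adgre1 of the same list did not overlap, at 10.4 and 8.98 TPM with CX-5461, against 4.48 and 4.99 TPM with DMSO. None of 5 pluripotency markers reached a mean of 1 TPM, and Tdgf1 and Dppa5a were listed at 0. The part of these cell types in the cyclin results was not tested. Genes on the opposite strand overlap Ccna2 (Exosc9), Ccnd1 (LTO1), Ccnd2 (9330179D12Rik), Ccnd3 (Bysl) and Ccne2 (Ints8). The labels do not say that counting used strand, so reads in the shared stretches could belong to either gene.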

How the data were processed

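The authors deposited TPM values for each library, with a total of 1000000 in every column. Per the labels, raw reads went through BMKCloud, an online pipeline, and the submitters' processing notes name build mm10. Aligner, counter and annotation: not given in the sources used here. The members and gene lists were chosen with earlier results of these data known. limma 3.58.1 in R 4.3.3 was run on log2(TPM + 1) (trend and robust options, no covariate), with 2 residual and 3.75 prior degrees of freedom, adjusted by Benjamini-Hochberg over the 14621 genes whose mean was not under 1 TPM. A fold change on this scale understates that of low genes. Named with TPM values were all 10 cyclins and, of each list, the 2 genes with the smallest adjusted p and those that passed against the majority. Other tested members that are named appear by their difference, save Cdk4, Pkmyt1, Cdc25c and E2f2, whose TPM values are given as well. Positions and exon lengths came from GENCODE release M21 (mm10). Read numbers were recovered from TPM, exon length and 1 factor for each library, set so that each end of a read pair counts as a read. Below 10000 reads there were 70108 nonzero values, and 69.7% of them came out whole to within 0.01, where chance gives 2%. Over genes with whole reads, the CX-5461 pair gave a chi-square of 8.75 per degree of freedom and the DMSO pair 15.4, so neither pair was 1 library deposited under 2 names. Alternatives were other pseudocounts, filters and scalings, limma without its options, a replicate block and each library left out. The fit was checked on 1 simulated table of this size, in which known changes that were called had the right direction. Of its 198 calls, however, 34 were genes without a change, which is more than the 0.05 threshold allows. Of these 34, 22 were under 5 TPM. The simulation changed few genes, with a spread set beforehand, whereas 19.8% of genes were called here. Its share of such calls is therefore not that of the real table. Calls here with an adjusted p near 0.05 are still best taken as less certain than that threshold says. Python 3.11.15 and matplotlib 3.10.9 were used for the remaining steps. 0 columns were left unused.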

Additional observations from a re-analysis of the deposited data

How the results depend on the processing

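In all 13 alternatives Ccna2, Ccnb1, Ccnb2, Ccne1 and Ccne2 passed as lower, and Ccnd1 and Ccnd2 did not pass. The sizes of the falls depended on the pseudocount. With 0.1 and 5 the differences were -5.09 and -3.29 for Ccnb2, -4.61 and -2.86 for Ccnb1, and -3.46 and -2.74 for Ccna2. For Ccne2 they were -2.22 and -1.415, and for Ccne1 -1.67 and -1.48. Both values of Ccnb1 and Ccnb2 lay outside their intervals above, as did those of Ccna2 and Ccne2 with 5. The intervals hold for a pseudocount of 1 and do not bound the fall in TPM. Under the 3 other scalings the difference of Ccnd2 was -0.04 to -0.03, below 0, and that of Ccnd1 was -0.15 to -0.06. With 1 library left out, the count of cyclins that passed as higher ran from 0 to 2 and as lower from 5 to 6. Partner genes that passed as higher ran from 0 to 3 and as lower from 14 to 21. Under each of the 3 other scalings, 25 partner genes passed as lower and 2 as higher, against 20 and 3 as reported. Over the whole table, with 1 library left out, higher genes ran from 237 to 2047 and lower genes from 364 to 891. Higher genes over the whole table numbered 1051 with no filter and 1128 without limma's trend and robust options, against 1694 as reported. The cause was not tested, save that each fit without 1 library takes its spread from the intact pair of the other group and assumes that the lone library varies like it. The replicate numbers are not said to pair the libraries, and same-numbered deviations correlated at r = 0.03; with a replicate block, 1589 genes were higher and 1100.0 lower, and the counts for cyclins were 1 and 6 as reported. Depth limits the CX-5461 values of Ccnb1 and Ccnb2.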
